A study of Mus musculus with 20 samples.

Results

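Editing of 3 transcripts that encode proteins of the nucleolus and the nuclear pore was followed through 5 lines of mouse embryonic fibroblasts, the connective tissue cells that grow out when a mouse embryo is put into culture. The genes are Ncl, Gnl3l and Nup155. The members are the adenosines listed in these genes that had at least 50 reads in both libraries of at least 1 group. There are 191 of them, 128 in Ncl, 31 in Gnl3l and 32 in Nup155, out of 198 sites listed in the 3 genes and 48425 sites listed in all. In the whole series 9065 sites met the same coverage rule. The 7 sites left out, 3 in Gnl3l and 4 in Nup155, had 0 reads in every library, while the members had at least 93 reads in both libraries of their best covered group. The genes were selected on their treated and untreated levels in ADAR2-null cells, so the interferon response of that line is given below as a description, without a test.

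The lines are labelled ADAR1_WT (called wild type here), ADAR1_NULL, ADAR2_NULL, P150_KO and STAT2_NULL. For each line there are 2 libraries of untreated and 2 of interferon-treated cells, which makes 20 libraries in 10 groups. Each genotype is a single line, so the genotype and other differences between lines cannot be told apart. No source used here gives the type, dose or duration of the interferon. It is not stated whether libraries of 1 group stem from different cultures. The p-values therefore rest on the spread between libraries alone, which may be technical.

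In A-to-I editing an adenosine of double-stranded RNA is deaminated to inosine, which sequencing reads as G. ADAR1 carries this out in a constitutive, mainly nuclear form (p110) and in an interferon-inducible form that reaches the cytoplasm (p150), while ADAR2 is a separate enzyme known above all for sites in neuronal transcripts. STAT2 is a transcription factor through which type I interferon induces its target genes. Nucleolin, the product of Ncl, is an abundant RNA-binding protein of the nucleolus that takes part in rRNA transcription and processing. Gnl3l encodes a nucleolar GTPase of the nucleostemin family that takes part in the processing of ribosomal RNA precursors. Nup155 is a scaffold protein of the inner ring of the nuclear pore complex. In 3′ UTRs the inverted repeats that pair with each other are the usual substrates of ADAR1. The files hold no repeat annotation, so no pairing was examined.

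The level of a site is the number of edited reads divided by all reads over it, in percent. Summed over all sites, coverage was 4389326 to 5559674 reads per library, and 5652 to 8814 sites per library had at least 50 reads. The median coverage of the members per library was 1803 to 3716 reads in Gnl3l, 681.5 to 1043.5 in Nup155 and 82.5 to 364 in Ncl. All 31 Gnl3l and all 32 Nup155 members had at least 50 reads in every library, against 87 of the 128 in Ncl. The assay measures editing in amplified cDNA and not transcript amounts, so neither the loss of the targeted genes nor the fibroblast identity could be checked. Of 8 fibroblast marker genes 1 has a listed site and 0 have a covered one. Of the other markers looked up, 0 of 5 macrophage genes, 1 of 4 epithelial genes and 0 of 3 endothelial genes have a covered site.

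All 191 members are annotated as 3′ UTR, and on the mouse build mm9 they lie in 8 short runs. The Gnl3l members fill 1 run of 137 bases on the minus strand, chrX:147419967-147420103. The Ncl members lie on the minus strand of chromosome 1 in 5 runs, chr1:88242356-88242524 with 23 sites, chr1:88244144-88244315 with 24, chr1:88244377-88244559 with 27, chr1:88245262-88245407 with 31 and chr1:88246564-88246690 with 23. The Nup155 members lie on the plus strand of chromosome 15, 20 in chr15:8108190-8108318 and 12 in chr15:8109479-8109516. Positions are those of the files, which do not say if the first base of a chromosome is 0 or 1. Runs are split where neighbouring sites lie more than 60 bases apart. Close sites can be read from the same fragments, so the sites of a run are not taken as independent. Coverage rises about 2 times in steps along some runs, and it is not stated whether overlapping mates of a read pair were counted separately, so limits are also given with all reads halved.

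**Figure D1:**
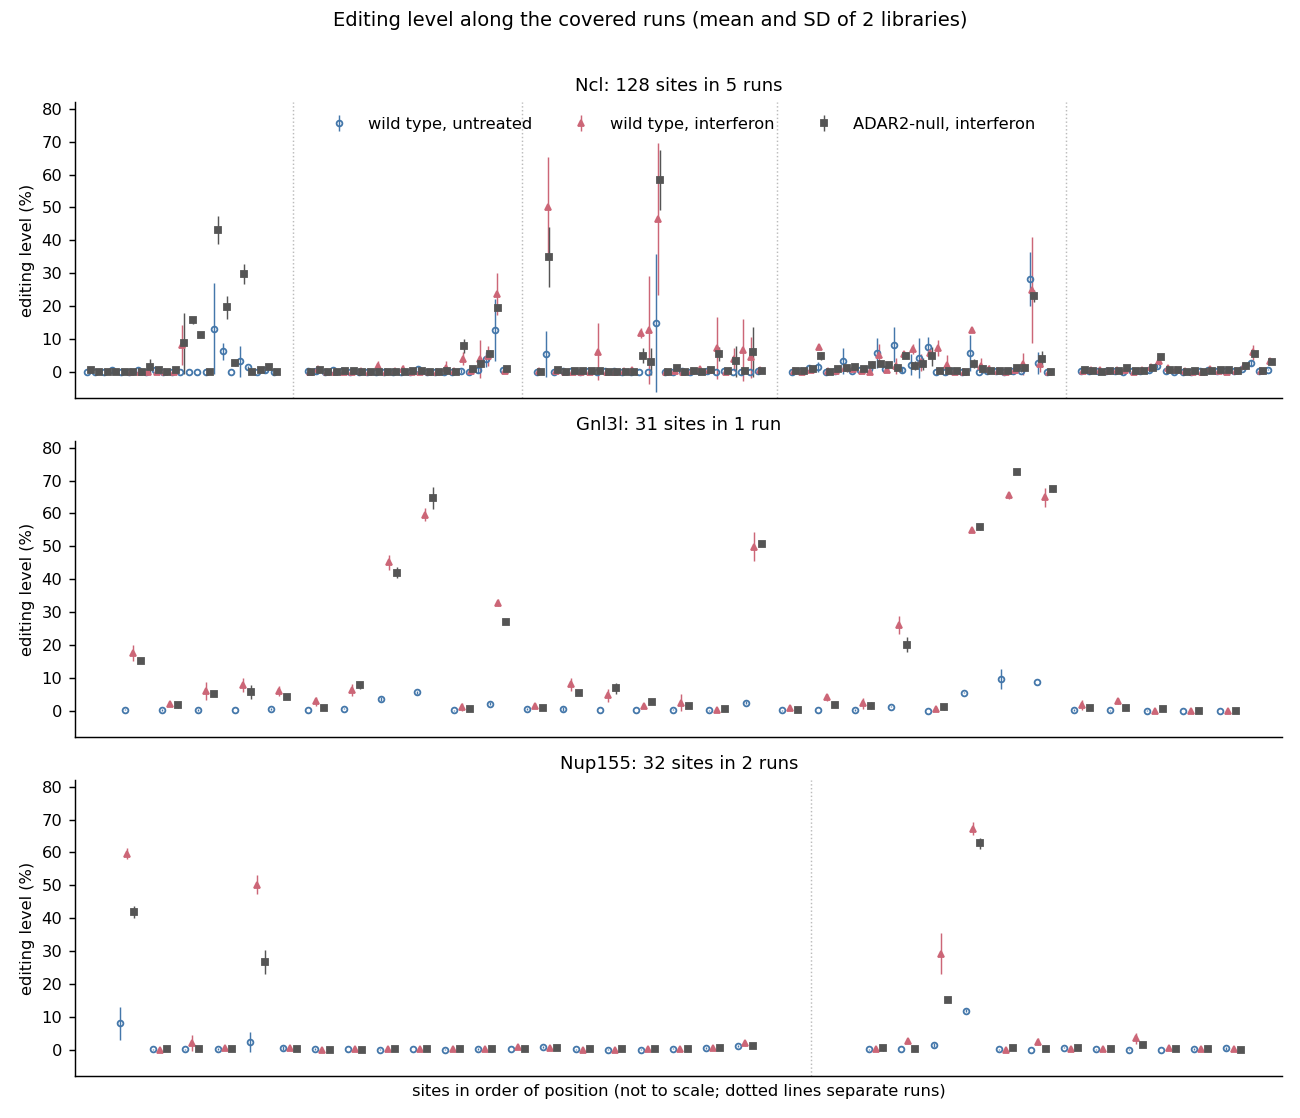
Editing level (y axis, percent) of each member in position order (x axis) in wild-type cells untreated and after interferon and in ADAR2-null cells after interferon; points are means and bars SDs of 2 libraries, and groups with under 50 reads in a library are not drawn. A few adenosines per run reach high levels after interferon in both lines while most of their neighbours stay near 0, and the bars of Ncl are the longest.

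Within a run, editing was concentrated at a few adenosines. In interferon-treated wild-type cells 8 of 175 covered members had a mean level of at least 50%, 4 in Gnl3l, 3 in Nup155 and 1 in Ncl, while 103 were under 1%. The Gnl3l adenosine 147420060 stood at 0.494% and 1.01% in the treated wild-type libraries, and 147420065, a few bases away, at 54.8% and 54.9%, on 2228 and 2187 reads against 2229 and 2184. In Nup155 the neighbouring adenosines 8109485 and 8109486 had means of 2.82% and 29.3%, and 8109489, within the same few bases, had 67.3%. These neighbours, singled out after their values were seen, have nearly the same coverage in each pair. In untreated wild-type cells 0 members reached 50% and 5 of 191 reached 10%, 4 in Ncl and 1 in Nup155.

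Gnl3l, the nucleolar GTPase, had the most uniform editing of the 3 genes. Its site with the highest mean level over all libraries, chrX:147420066, was edited at 7.60% and 11.8% in the untreated wild-type libraries and at 64.8% and 66.3% after interferon. The treated libraries stood far above the untreated ones, and the difference was 55.8 ± 2.22 percentage points (SE, n = 2 and 2; edgeR adjusted p = 0.000992). At chrX:147420072 the wild-type levels were 8.86% and 8.71% untreated and 62.8% and 67.0% treated, a difference of 56.1 ± 2.11 points (edgeR adjusted p = 0.000407). At chrX:147419998 they were 6.07% and 5.35% against 58.2% and 61.1%, a difference of 53.9 ± 1.47 points (edgeR adjusted p = 0.0005). The groups did not overlap at any of these 3 sites, and each call held in all 12 alternative settings. The sites were chosen on their mean level over all 20 libraries, the treated wild-type ones included. High treated levels, and with them the differences and the lack of overlap, therefore partly follow from the choice. No share of all sites without overlap is set beside these 3.

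The lines without p150 gave almost no editing at the same adenosines, and STAT2-null cells stayed near the untreated wild-type level. In p150-knockout cells chrX:147420066 was at 0.0779% and 0.0837% untreated and 0.134% and 0.0803% treated, in each case 2 to 5 edited reads of 2390 or more. In ADAR1-null cells the highest library was at 0.0838%, where 3 edited reads of a group in these lines amount to 0.0483% to 0.0643%, or 0.0966% to 0.129% with reads halved. STAT2-null cells had 6.86% and 9.39% untreated and 10.3% and 11.8% treated, within a few points of the untreated wild-type libraries. Interferon changed this site in STAT2-null cells by 2.93 ± 1.50 points, which the test did not call (edgeR adjusted p = 0.999). At the second site, chrX:147420072, p150-knockout cells had 0.670% and 1.05% untreated and 0.643% and 1.16% treated. ADAR1-null cells had 0.131% and 0.488% untreated and 0.264% and 0.629% treated there. The site was not tested between these 2 lines. At the third, chrX:147419998, STAT2-null cells had 3.04% and 3.40% untreated and 3.33% and 4.04% treated, against 5.35% and 6.07% in untreated wild-type cells, with no overlap between the lines (edgeR adjusted p = 0.592).

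Nup155, the inner-ring nucleoporin, had fewer edited adenosines, spread over both of its runs. At chr15:8109489 the wild-type levels were 11.6% and 12.3% untreated and 65.9% and 68.7% after interferon, a difference of 55.4 ± 1.45 points (edgeR adjusted p = 0.00422). At chr15:8108190 they were 11.7% and 4.53% against 58.4% and 60.7%, 51.5 ± 3.78 points apart (edgeR adjusted p = 0.00248). At chr15:8108212 they were 4.65% and 0.188% against 52.2% and 48.1%, 47.7 ± 3.02 points apart (edgeR adjusted p = 0.00123). The treated libraries stood above the untreated ones at each site, although the untreated libraries differed from each other at 8108190 and 8108212. These sites were chosen in the same way as those of Gnl3l, so their high treated levels partly follow from the choice. All 3 calls were lost when the spread was estimated from the compared groups alone, with adjusted p = 0.064, 0.0644 and 0.0771.

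The 3 Nup155 sites parted in STAT2-null cells. Site 8109489 was at 7.89% and 5.29% untreated and 8.22% and 10.5% treated there, below the untreated wild-type libraries in all 4. Site 8108190 was at 3.31% and 4.52% untreated and 5.05% and 5.34% treated. Site 8108212 was at 0.253% and 0.719% untreated and 0.117% and 0.331% treated. These levels overlapped p150-knockout cells, which had 0.285% and 0.676% untreated and 0.478% and 0.568% treated. They also overlapped the untreated wild-type libraries, at 4.65% and 0.188% (edgeR adjusted p = 0.574 for untreated STAT2-null against wild type). At site 8109489 the p150-knockout libraries ranged from 0.413% to 0.822%. In untreated ADAR1-null cells 0 of 975 reads were edited at this site, which allows a level of up to 0.308%, or 0.615% with reads halved, for counting error only.

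Ncl, the nucleolin transcript, had the largest number of members and the widest spread between libraries. Its leading site, chr1:88244503, was at 29.8% and 0% in the 2 untreated wild-type libraries and at 62.9% and 30.1% after interferon. The first untreated library thus almost met the second treated one, and the difference of 31.6 ± 22.1 points was not called (edgeR adjusted p = 0.133). At chr1:88245381 the wild-type levels were 34.0% and 22.4% untreated and 13.6% and 36.4% treated, and the groups overlapped fully. The treated minus untreated difference there was -3.20 ± 12.8 points (edgeR adjusted p = 0.809). At chr1:88244312 they were 6.21% and 19.6% against 19.3% and 28.2%, also with overlap, and 10.9 ± 8.02 points apart (edgeR adjusted p = 0.389). With 1 library left out at a time the difference at 88245381 lay between -14.6 and 8.21 points, so its sign was not fixed.

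The mean levels of STAT2-null, p150-knockout and ADAR1-null cells were lower than the untreated wild-type mean at these 3 Ncl sites. In STAT2-null cells 88244503 had 5.21% and 3.91% untreated and 1.86% and 9.23% treated, and 88245381 had 5.91% and 9.17% against 5.86% and 4.91%. In p150-knockout cells 88244503 had 4 of 672 and 0 of 582 reads edited untreated and 6 of 598 and 24 of 659 treated. Site 88244312 kept more editing in treated p150-knockout cells than the other 8 sites given in full, 7.83% and 3.33%, against 1.88% and 0.752% untreated, a difference of 4.27 ± 2.32 points that was not called (edgeR adjusted p = 0.38). In ADAR1-null cells 0 of 727 untreated and 0 of 1042 treated reads were edited at 88244503, which allows levels of up to 0.413% and 0.288%, or 0.825% and 0.576% with reads halved, for counting error only.

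**Figure D2:**
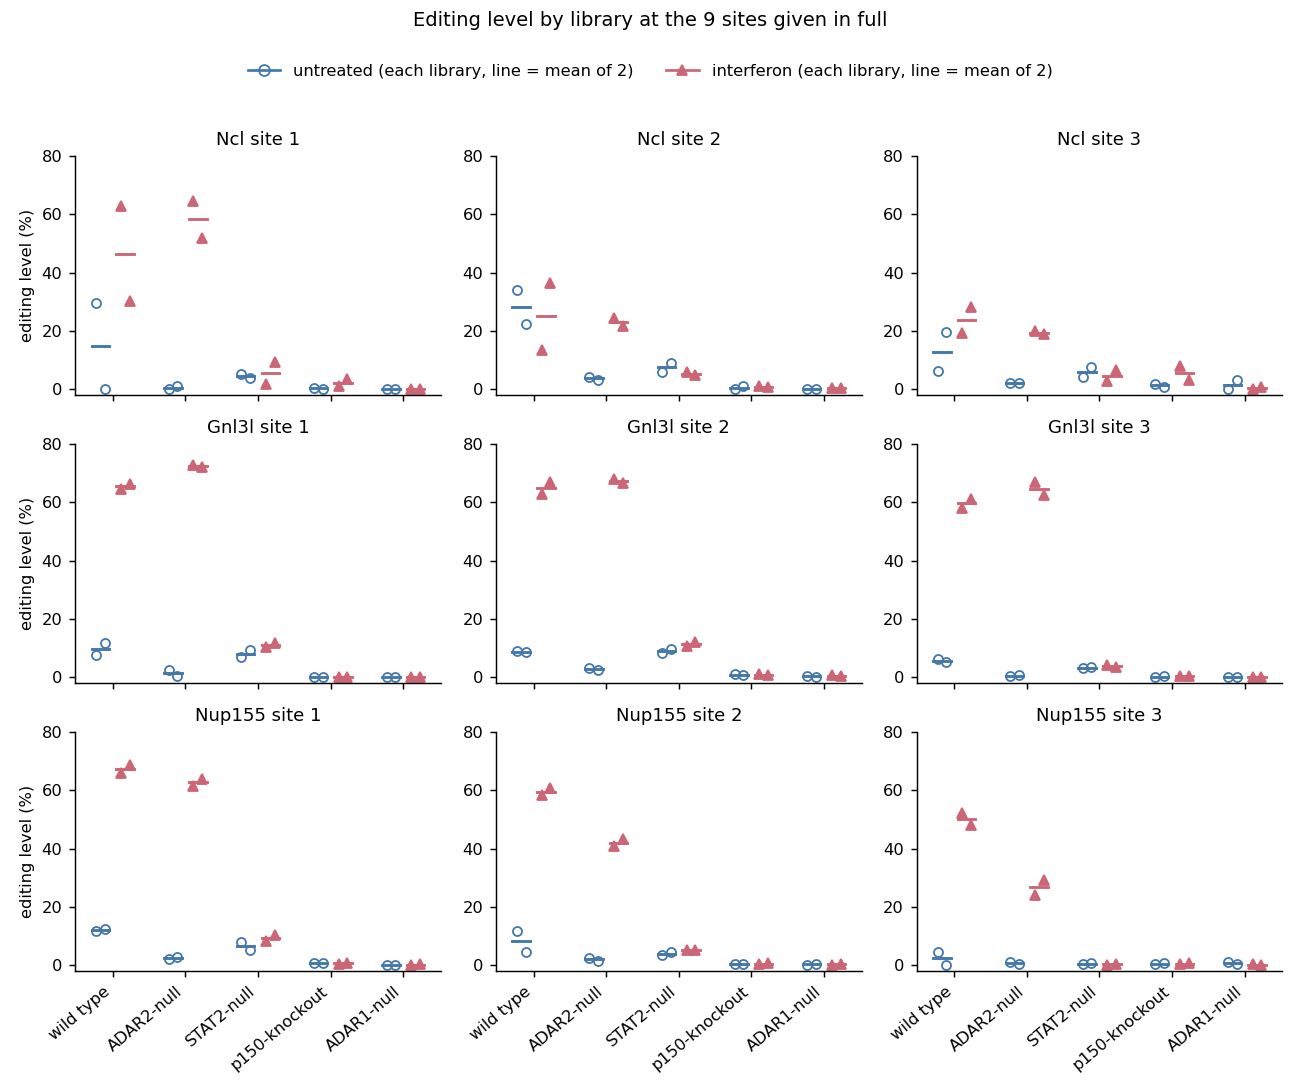
Editing level (y axis, percent) at 3 sites of each gene in each library of the 5 lines (x axis); open circles are untreated and filled triangles interferon-treated libraries, and short lines are means of 2. Sites 1 to 3 are 88244503, 88245381 and 88244312 in Ncl, 147420066, 147420072 and 147419998 in Gnl3l, and 8109489, 8108190 and 8108212 in Nup155; wild-type and ADAR2-null cells after interferon stand above all other groups in Gnl3l and Nup155, and the wild-type libraries of Ncl lie far apart.

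The spread between libraries can be put as the number of independent reads that would give it, the sum of p(1 - p) over the sum of the variances of the level p. Over site and group values with a mean level of 5% to 95%, this number was 17.4 in Ncl (55 values, median 193 reads), 423 in Gnl3l (39 values, median 2188.5 reads) and 196 in Nup155 (13 values, median 567 reads). It was 17.3 over 1954 values of all other sites, whose median was 442.5 reads. The highest SD of 2 libraries was 23.2 points in Ncl, 4.50 in Gnl3l and 6.34 in Nup155. These numbers are descriptions, since sites of a run may share reads.

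**Figure D3:**
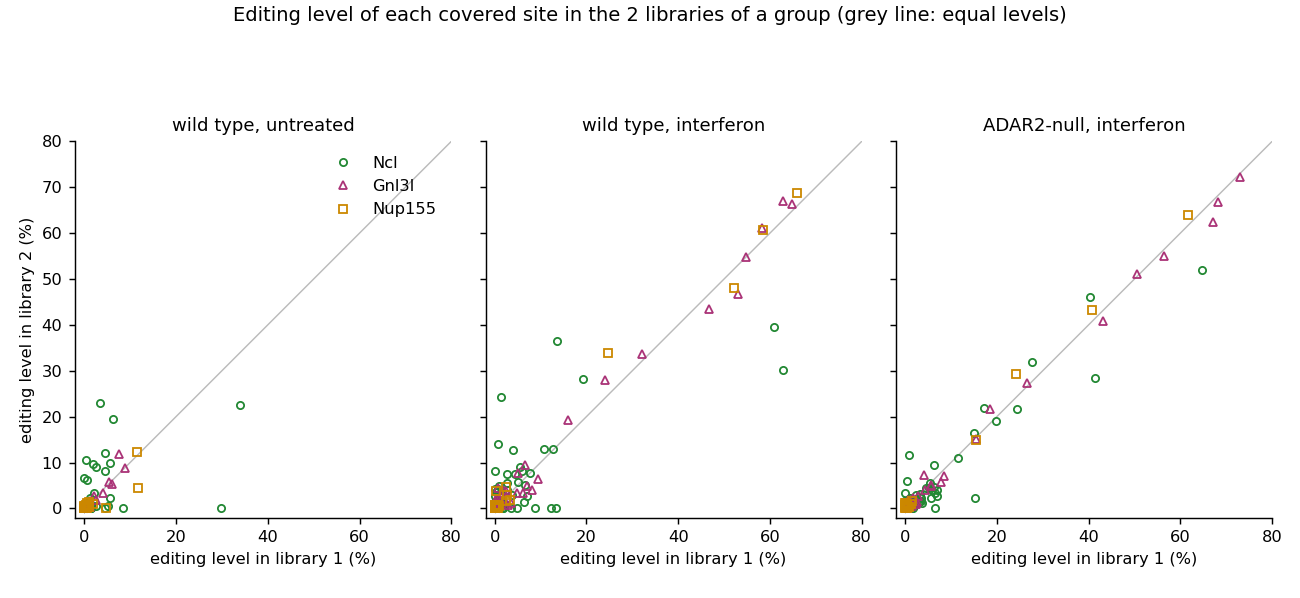
Editing level of each covered member in library 1 (x axis, percent) and library 2 (y axis, percent) of untreated wild-type, treated wild-type and treated ADAR2-null cells; the grey line marks equal levels. Gnl3l and Nup155 sites lie near the line, and several Ncl sites of the wild-type groups lie far from it, such as the one at 29.8% and 0%.

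Over all members, interferon raised editing in wild-type cells at 32 of 65 tested sites and lowered it at 0, where 40.4% of all 1223 tested sites were higher and 0.654% lower. A site entered a test if each library of the compared groups had 50 reads or more and their mean level was 1% or more, and it was called at an adjusted p under 0.05 over all sites tested. A member could pass the level minimum through the group where it is high, so these counts are over the tested sites, not over the 175 members that had the reads. In Gnl3l 19 of 23 tested sites rose, in Nup155 7 of 9 and in Ncl 6 of 33. The median difference of the 65 was 4.56 points, beside 5.27 over all tested sites. The count was 13 when the spread was estimated from the compared groups alone, beside 109 of all 1223 tested sites. With a mean level of at least 5% it was 16 of 23, beside 335 of all 541.

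The 6 Ncl sites that rose were 88242476, 88244395, 88244501, 88244502, 88244547 and 88245322, and they are named here after their values were seen. At 88244395 the untreated wild-type libraries had 0.459% and 10.5% and the treated ones 60.8% and 39.5% (edgeR adjusted p = 0.0204). At 88244501 they had 0 of 439 and 0 of 462 reads edited against 33 of 309 and 58 of 447 (edgeR adjusted p = 0.00269). The groups were well apart at both sites. At 88244502, the next base, the treated libraries had 1.29% and 24.3%, so 1 library carried most of the mean, and at 88244547 they had 1 of 158 and 32 of 228 reads. Of the 6 sites 4 lie in the third run, chr1:88244377-88244559. In the fourth run, chr1:88245262-88245407, 1 of 14 tested sites rose, and 88245302 had 4.55% and 12.1% untreated against 3.47% and 0% treated (edgeR adjusted p = 0.152). The first run could hardly be tested, because the treated wild-type libraries had 48 and 49 reads at sites such as 88242486. That site was at 3.41% and 23.0% untreated and 26.5% and 31.3% treated.

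In ADAR2-null cells the same adenosines carried the high levels after interferon. As a description, the untreated and treated means there were 1.44% and 72.6% at Gnl3l 147420066, 2.89% and 67.4% at 147420072 and 0.539% and 64.7% at 147419998. For Nup155 they were 2.56% and 62.7% at 8109489, 1.93% and 42.0% at 8108190 and 0.609% and 26.7% at 8108212. In Ncl they were 0.542% and 58.3% at 88244503, 3.81% and 23.0% at 88245381 and 2.01% and 19.4% at 88244312. The treated ADAR2-null libraries had 64.7% and 51.9% at Ncl 88244503 and 24.3% and 21.7% at Ncl 88245381, closer together than the wild-type ones at these 2 sites, while at others such as 88242476 the ADAR2-null SD of 9.17 points was above the wild-type SD of 6.07. Of the 191 members, 7 were at 50% or above and 22 at 10% or above in treated ADAR2-null cells, and 0 reached 10% untreated.

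Levels of ADAR2-null and wild-type cells are set side by side here as a description, since the ADAR2-null levels served to choose the genes. After interferon, the Gnl3l differences, ADAR2-null minus wild type, were 7.04 ± 0.882, 2.54 ± 2.23 and 5.08 ± 2.76 points (SE, n = 2 and 2) at 147420066, 147420072 and 147419998. In Nup155 the ADAR2-null libraries lay below the wild-type ones at all 3 sites, farthest at 8108212, where the libraries had 24.1% and 29.3% against 52.2% and 48.1%, a difference of -23.4 ± 3.31 points. At 8108190 the difference was -17.6 ± 1.70 points. The edgeR fit called 0 of 70 members tested, where it called 2% of all 1348 tested sites. Of the 70, 4 had an unadjusted p under 0.05, beside 196 of the 1348. Limma on log odds called 1 of the 70, beside 62 of the 1348. Nothing is read from these counts.

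Before interferon, the ADAR2-null libraries had 2.61% and 0.261% against 7.60% and 11.8% in wild type at Gnl3l 147420066. At Gnl3l 147419998 they had 0.348% and 0.730% against 6.07% and 5.35%. At Ncl 88245381 they had 4.33% and 3.28% against 34.0% and 22.4%, and at Nup155 8109489 2.24% and 2.88% against 11.6% and 12.3%. The lines did not overlap at these 4 sites. Of the sites given in full they overlapped at Ncl 88244503, with 0% and 1.08% against 29.8% and 0%. They also overlapped at Nup155 8108212, with 0.989% and 0.228% against 4.65% and 0.188%. These levels are a description, since those of ADAR2-null cells served to choose the genes. The edgeR fit called 9 of 32 members tested lower in ADAR2-null cells and 0 higher, where it called 12.9% of all 588 tested sites lower and 0.68% higher. Nothing is read from this count either. It was lower when any 1 of the 4 libraries was left out, which leaves a single library in a group. With the spread from the compared groups alone 0 of the 32 and 0 of all 588 sites were called.

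Untreated cells without p150 were lower than wild type at every tested Gnl3l site and at the leading site of Nup155. In ADAR1-null cells 14 of 25 tested members were lower and 0 higher, where 49% of all 386 tested sites were lower and 0.259% higher, with a median difference of -5.20 points beside -4.04 over all. They were 7 of 7 in Gnl3l, 5 of 14 in Ncl and 2 of 4 in Nup155. In p150-knockout cells 13 of 30 were lower and 0 higher, where 32.5% of all 517 tested sites were lower and 0.58% higher, with a median of -4.11 beside -3.25. These were 7 of 7 in Gnl3l, 4 of 19 in Ncl and 2 of 4 in Nup155. Nup155 8109489 had 0.760% and 0.822% in p150-knockout cells, a difference from wild type of -11.1 ± 0.351 points (edgeR adjusted p = 0.00467), and the other site called in both lines was 8108190. Ncl 88245302, 88245316, 88245354 and 88245381 were called in both lines, and 88246680 in ADAR1-null cells. At Ncl 88245381 the untreated p150-knockout libraries had 0% and 0.987% against 34.0% and 22.4% (edgeR adjusted p = 0.00178). With the spread from the compared groups alone the p150-knockout calls at Nup155 8109489, Nup155 8108190 and Ncl 88245381 were lost, with edgeR adjusted p of 0.0595, 0.0645 and 0.065. The count in ADAR1-null cells was lower without the first ADAR1-null library, which had the fewest Ncl sites with 50 reads. That fit leaves a single library in the group. The count in p150-knockout cells was 7 with the spread from the compared groups alone, beside 66 of all 517.

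Untreated STAT2-null cells showed 0 called members of 32 tested in edgeR's test, where 2.95% of all 643 tested sites were called in either direction. Of the 32, 3 had an unadjusted p under 0.05, beside 105 of the 643. Limma on log odds called 0 of the 32, with no share over all sites set beside it. The median difference of the 32 was -1.61 points, beside -0.751 over all tested sites. Of the sites given in full, the one with the largest difference was Ncl 88245381, where STAT2-null libraries had 5.91% and 9.17% against 34.0% and 22.4%, -20.7 ± 5.99 points without overlap (edgeR adjusted p = 0.282). At Gnl3l 147420072 the STAT2-null levels of 8.38% and 9.75% enclosed the wild-type levels of 8.86% and 8.71%.

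After interferon, all 3 of these lines were lower than wild type at most tested members. Within Ncl this did not hold for STAT2-null cells. In p150-knockout cells the share was near that of all tested sites, so nothing particular to the members is read from it. In ADAR1-null cells 51 of 62 were lower, where 69.5% of all 1159 tested sites were, in p150-knockout cells 44 of 65, where 63.9% of 1039 were, and in STAT2-null cells 33 of 63, where 39.8% of 1217 were. In edgeR's test 0 tested members were higher in any of the 3, where 0%, 0.577% and 1.15% of all tested sites were, in that order. The median differences of the members were -5.86, -5.43 and -5.69 points, beside -7.06, -6.14 and -5.54 over all tested sites. The comparisons share the treated wild-type libraries, so they are not independent of each other. In Gnl3l the counts were 21 of 21, 19 of 22 and 19 of 21, and in Nup155 7 of 9, 7 of 9 and 6 of 9. In Ncl they were 23 of 32, 18 of 34 and 8 of 33. All 6 Gnl3l and Nup155 sites given in full were lower in each line, with differences from -67.2 to -49.6 points in the lines without p150 and from -57.9 to -49.9 points in STAT2-null cells. Their largest edgeR adjusted p was 2.55e-05 in ADAR1-null, 5.37e-05 in p150-knockout and 0.00243 in STAT2-null cells. The treated wild-type levels entered the choice of these sites, so the differences partly follow from it. At Ncl 88244503 the p150-knockout difference was -44.2 ± 16.4 points (edgeR adjusted p = 0.0146, and 0.108 without the first treated p150-knockout library). Without the first treated STAT2-null library, which leaves a single library in that group, the count in that line was lower. No share over all sites is set beside that fit, so nothing particular to the members is read from it.

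Within these lines no tested member was called for interferon. In edgeR's test 0 of 26 tested members were called in STAT2-null cells, where 0% of all 658 tested sites were, and limma on log odds called 0 of the 26. Of these members 0 had an unadjusted p under 0.05, beside 19 of the 658. Both treated STAT2-null libraries stood above both untreated ones at Gnl3l 147420066 and 147420072 and Nup155 8109489 and 8108190. The differences there were 2.93, 2.36, 2.77 and 1.29 points, in that order. At Ncl 88245381 both treated libraries lay below, by -2.16 points, and at the other sites given in full the groups overlapped. In p150-knockout cells 0 of 7 were called, where 1.65% of all 243 tested sites were. Of the 7, 0 had an unadjusted p under 0.05, beside 31 of the 243. In ADAR1-null cells 0 of 1 was called, where 0% of 114 were, and 0 of 1 had an unadjusted p under 0.05, beside 16 of the 114. Limma on log odds called 0 in these 2 lines as well, and no share over all sites is set beside its counts. Few members could be tested there because so few reached a mean level of 1%. In p150-knockout cells the absence of calls did not hold without the second treated library, which leaves a single library in that group. That line also held an uneven value at Gnl3l 147420060, where 189 of 3718 reads were edited in the first treated library and 0 of 2491 in the second.

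The difference between responses was tested directly, as treated minus untreated in a line minus the same in wild type. It was lower than in wild type at 10 of 52 tested members in STAT2-null cells, where 13.7% of all 1026 tested sites were, at 12 of 50 in p150-knockout cells, where 17% of 839 were, and at 9 of 44 in ADAR1-null cells, where 12.2% of 754 were. In each line 8 of 16 tested Gnl3l sites were called. The called Nup155 sites were 8108212 in all 3 lines and 8109489 and 8109501 in p150-knockout cells. The called Ncl site was 88244502 in STAT2-null and p150-knockout cells, where 1 treated wild-type library carries the high level. At Gnl3l 147420072 the line minus wild type difference in response was -53.8 ± 2.34 points in STAT2-null (edgeR adjusted p = 0.0154), -56.1 ± 2.13 in p150-knockout (edgeR adjusted p = 0.00859) and -56.0 ± 2.12 in ADAR1-null cells (edgeR adjusted p = 0.0286). The model works on log odds, so a line with almost 0 edited reads has a poorly fixed response. At Nup155 8109489 the ADAR1-null difference of -55.3 ± 1.46 points was not called (edgeR adjusted p = 0.906), with 0 edited reads of 975 untreated and 1 of 882 treated. Leaving out p150-knockout library 1 treated, 1 untreated or 2 untreated, or untreated wild-type library 2, lowered the p150-knockout count. Leaving out STAT2-null library 1 treated or 2 untreated lowered the STAT2-null count. Each of these fits leaves a single library in a group, and no share over all sites is set beside them. The median differences of the tested members were -5.91, -6.52 and -6.08 points in STAT2-null, p150-knockout and ADAR1-null cells, beside -6.56, -7.00 and -7.55 over all tested sites.

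**Figure D4:**
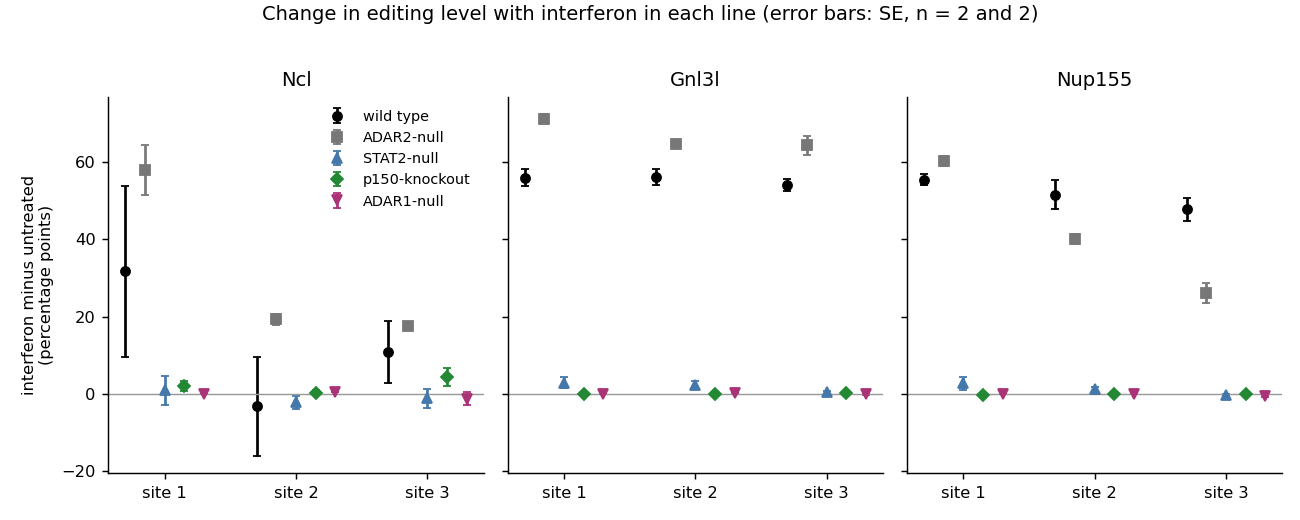
Interferon-treated minus untreated editing level (y axis, percentage points) at the same 9 sites (x axis) in each line; error bars are standard errors of the difference, with n = 2 and 2. Wild-type cells lie at 47.7 to 56.1 points in Gnl3l and Nup155 and scatter widely in Ncl, while STAT2-null, p150-knockout and ADAR1-null cells lie near 0.

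Between p150-knockout cells, which keep p110, and ADAR1-null cells no tested member was called in edgeR's test. In edgeR's test 0 of 2 tested members were called untreated, where 11.8% of all 152 tested sites were, and 0 of 6 with interferon, where 7.11% of 197 were. An unadjusted p under 0.05 was reached by 0 of the 2 and by 1 of the 6, beside 34 of the 152 and 48 of the 197. Limma on log odds called 0 of the 2 and 1 of the 6, the latter beside 33 of all 197. In edgeR the absence of calls with interferon did not hold without the second treated p150-knockout library, which leaves a single library in that group. At Ncl 88244312 the treated p150-knockout level was 5.23 ± 2.28 points above the ADAR1-null level (edgeR adjusted p = 0.111).

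The order of the 10 groups by mean level was alike at the Gnl3l and Nup155 sites. The 2 treated groups of ADAR2-null and wild-type cells came first at all 6, with no overlap with the third group. The genes were chosen on ADAR2-null levels and the sites on their mean level. The place of these groups in the order is therefore a description and partly follows from the choice. ADAR2-null cells led at the 3 Gnl3l sites and wild-type cells at the 3 Nup155 sites, and the first 2 groups overlapped at Gnl3l 147420072. Untreated wild-type cells and both STAT2-null groups followed at 5 of the 6 sites, then untreated ADAR2-null cells and last the 4 groups without p150. At Nup155 8108212 all groups after the first 2 overlapped their neighbour in the order. At Ncl 88245381 untreated wild-type cells came first with 28.2% ± 8.15 (SD, n = 2), overlapping treated wild-type cells with 25.0% ± 16.1 and treated ADAR2-null cells with 23.0% ± 1.84.

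Averaged over the sites with at least 50 reads in all libraries and a mean level of at least 1%, Gnl3l (15 sites) was at 2.84% ± 0.141 untreated and 30.4% ± 0.0523 treated in wild-type cells, and Nup155 (5 sites) at 4.99% ± 1.61 and 41.7% ± 1.29. Ncl (19 sites) was at 5.51% ± 0.934 and 10.1% ± 1.38. In ADAR2-null cells the 3 genes were at 0.686%, 1.31% and 0.787% untreated and 30.1%, 29.6% and 8.67% treated, in the same order. In STAT2-null cells they were at 2.37%, 2.53% and 1.98% untreated and 3.02%, 3.13% and 1.50% treated. These averages describe the sites that passed the minimum, and they depend on it. Over all sites with at least 50 reads in every library, treated wild-type cells were at 15.5% ± 0.172 in Gnl3l (31 sites), 7.08% ± 0.293 in Nup155 (32 sites) and 2.79% ± 0.336 in Ncl (87 sites), so that Gnl3l and not Nup155 was highest. Untreated they were at 1.51%, 1.02% and 1.44%.

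Outside its own gene, the site most like Gnl3l 147420066 over the 20 libraries, by the root mean square difference in level, was Nup155 8109489 at 3.56 points, followed by a site of Bri3bp at 3.94 and one of Rhoa, which regulates the actin cytoskeleton, at 4.49. The median over 581 compared sites in 111 genes was 27.5 points. For Nup155 8109489 the nearest site in another gene was Gnl3l 147420072 at 2.39 points, then Bri3bp at 4.74 and Cds2, an enzyme of phospholipid synthesis, at 4.80, beside a median of 25.6. For Ncl 88244503 they were Bri3bp at 6.66, the small GTPase gene Nras at 8.17 and Ovca2 at 8.20, beside a median of 21.5. All these sites are in 3′ UTRs, and the same 20 libraries, which differ in depth, enter every comparison. They include the ADAR2-null libraries on whose levels the genes were chosen. The likeness of the Gnl3l and Nup155 sites is therefore in part built in by the choice.

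Other genes of the nucleolus and the nuclear pore were hardly covered by the amplicons. Of 70 further genes of the nucleolus and ribosome assembly, 29 have listed sites and 2 have covered ones, Ebna1bp2, which acts in assembly of the large ribosomal subunit, and Nol10. Interferon raised 3 of 9 tested sites of this list in wild-type cells, where 40.4% of all tested sites rose, all 3 in the 3′ UTR of Ebna1bp2. At chr4:118298748 the levels were 0% and 4.92% untreated and 12.4% and 24.9% treated (edgeR adjusted p = 0.0411), and at chr4:118298746 they were 0% and 0.410% against 4.29% and 18.4% (edgeR adjusted p = 0.0178). The third was chr4:118298678. After interferon 6 of 9 tested sites of the list were lower in ADAR1-null, 6 of 9 in p150-knockout, 3 of 9 in STAT2-null and 0 of 10 in ADAR2-null cells, near the shares of all tested sites that were lower in the first 3, 69.5%, 63.9% and 39.8%. Of 36 further nuclear pore genes, 21 have listed sites and 1, Nup214, has 3 covered ones, of which 0 were tested. Of 31 genes of nuclear transport, 24 have listed sites and 0 have a covered one.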

How the data were processed

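Loci were amplified from cDNA by RT-PCR, indexed in 15 further PCR cycles and sequenced, per the labels' protocols. The submitters' processing notes name BWA, SAMtools and mm9, with no versions or filters. Per the file headers, the authors deposited for each library and site the coverage and the edited reads as read counts and the editing level as a fraction. Levels were recomputed from the counts. Reads carry no molecular identifiers, so limits from counts cover counting error only.

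Edited and unedited counts were modelled with edgeR 4.0.16 (R 4.3.3; methylation design matrix, glmQLFit, glmQLFTest, two-sided), with a coefficient for each group and the 20 libraries fitted together. P-values were Benjamini-Hochberg adjusted over all sites tested, in 17 comparisons. A difference is between means of 2 library levels, with its SE from their SDs. The fit was tested on simulated data. The simulated libraries varied less than the real ones did in Ncl and over all other sites, so the fit was not tested at that spread. Tables and figures used Python 3.11.15, pandas 2.3.3, numpy 2.4.6 and matplotlib 3.10.9.

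The members, gene lists, filters and alternatives were chosen with earlier results of these data known. Sites given in full are, in each gene, the 3 with the highest mean level over all 20 libraries among those with at least 50 reads in each, and the site of greatest rise in ADAR2-null cells, which was among them; this choice favours sites high in some groups. Other sites named were chosen after their values were seen. Alternatives were minimum coverages of 20 and 100 reads, no minimum level and one of 5%, the compared groups alone, limma 3.58.1 on log odds with an offset of 0.5, a replicate block, and leaving out each library. An alternative with all reads halved was added after seeing that coverage doubles in steps along some runs. No genome of the files' build was used, so no flanking sequence is printed.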

Additional observations from a re-analysis of the deposited data

Results flagged for a closer look

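Differences between the interferon response of a line and that of wild-type cells were called in 10 tests at the sites given in full. Each is the treated minus untreated level of the line minus that of wild type, in percentage points. In STAT2-null cells the differences were -52.9 at Gnl3l 147420066, -53.8 at Gnl3l 147420072, -53.5 at Gnl3l 147419998 and -48.0 at Nup155 8108212. In p150-knockout cells they were -56.1 at Gnl3l 147420072, -55.6 at Nup155 8109489 and -47.7 at Nup155 8108212. In ADAR1-null cells they were -56.0 at Gnl3l 147420072, -54.0 at Gnl3l 147419998 and -48.2 at Nup155 8108212. The p150-knockout call at Nup155 8109489 was the least stable, with 4 of 16 alternatives called and adjusted p-values, over edgeR and limma settings, from 0.00468 to 0.246. Others were unstable too. The STAT2-null call at Gnl3l 147420066 was kept in 7 of 16 alternatives and the ADAR1-null call at Gnl3l 147420072 in 9. The p150-knockout call at Nup155 8108212 was kept in 10. The ADAR1-null call at Gnl3l 147419998 and the p150-knockout call at Gnl3l 147420072 were each kept in 15 of 16 alternatives, with adjusted p-values over the same settings from 0.00301 to 0.09 and from 0.00233 to 0.0566. The comparisons share the wild-type libraries, and sites of a gene may share reads. The treated wild-type levels also entered the choice of the sites, so large differences partly follow from it.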

How the results depend on the processing

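The sites given in full had 54 calls, for which 610 of 678 alternative values kept the call and its direction and 68 lost it, 15 of these when the spread came from the compared groups alone. For the 67 differences not called, 53 of 844 alternative values were called and 20 changed sign. Counts of called members that moved by over 1.5 times follow. Except for the fits without 1 library, each stands beside the count over all sites tested in that setting. With a mean level of at least 5%, fewer sites were tested, and the counts were 16 (335 of 541) for interferon in wild type, 3 (89 of 109) and 4 (103 of 135) for untreated ADAR1-null and p150-knockout against wild type, and 20 (461 of 479), 20 (384 of 404) and 19 (371 of 536) for treated ADAR1-null, p150-knockout and STAT2-null against wild type. With no minimum level they were 4 (66 of 6052) for untreated ADAR2-null against wild type, and 4 (63 of 4914) and 5 (86 of 4975) for the ADAR1-null and p150-knockout responses. With the compared groups alone they were 13 (109 of 1223) for interferon in wild type, 7 (66 of 517) and 0 (0 of 588) for untreated p150-knockout and ADAR2-null against wild type, and 2 (23 of 754) and 3 (41 of 839) for the ADAR1-null and p150-knockout responses. With limma on log odds they were 1 (62 of 1348) for treated ADAR2-null against wild type, 1 (33 of 197) for treated p150-knockout against ADAR1-null, and 21 (279 of 754), 21 (310 of 839) and 22 (310 of 1026) for the ADAR1-null, p150-knockout and STAT2-null responses. Apart from the fewer sites, the cause was not tested. The counts that come next are from fits without 1 library, which leave a single library in a group. They have no share over all sites beside them, so nothing particular to the members is read from them. Leaving out 1 library gave 0 to 1 for interferon in p150-knockout cells, 9 to 14 and 0 to 5 for untreated ADAR1-null and ADAR2-null against wild type, 20 to 34 and 0 to 1 for treated STAT2-null and ADAR2-null against wild type, 0 to 2 for treated p150-knockout against ADAR1-null, and 3 to 10 and 4 to 11 for the p150-knockout and STAT2-null responses.

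Leaving out 1 library changed the sign of 14 differences that were not called. At Ncl 88244503 they ranged from -2.70 to 4.67 points (interferon in STAT2-null), -25.2 to 4.56 (untreated STAT2-null against wild type) and -4.58 to 28.2 (treated ADAR2-null against wild type). At Ncl 88245381 they ranged from -14.6 to 8.21 (interferon in wild type), -13.4 to 9.44 (treated ADAR2-null against wild type), and -7.80 to 15.0, -7.84 to 15.0 and -10.4 to 12.4 (ADAR1-null, p150-knockout and STAT2-null responses). At Ncl 88244312 they ranged from -2.93 to 0.673 (interferon in STAT2-null), -8.74 to 0.146 (treated ADAR2-null against wild type), -1.85 to 0.293 (untreated p150-knockout against ADAR1-null) and -13.3 to 0.0955 (p150-knockout response). At Gnl3l the untreated STAT2-null differences from wild type ranged from -3.64 to 0.523 at 147420066 and from -0.412 to 0.959 at 147420072.

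The replicate numbers showed no sign of pairing in the levels: the correlation of same-number deviations was -0.109 to 0.0879 over 14 pairs of groups, under 0 in 7. A pairing with little effect on the levels would not show in this measure. With the replicate block the count for untreated ADAR2-null against wild type was 6 in place of 9, beside 66 in place of 80 over all sites. That for the p150-knockout response was 10 in place of 12, beside 124 in place of 144 over all sites. No count of called members moved by over 1.5 times. Between the libraries of a group the chi-square per degree of freedom was 3.45 to 21.3, and no pair was taken for 1 library. Depth limited Ncl most: its first run had 2 to 242 reads per site and library.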
